A study of Mus with 438 samples.

Results

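The homeodomain, LIM-homeodomain, zinc-finger and CUT-domain regulators Otx2, Crx, Prdm1, Onecut1, Isl2, Lhx2, Lhx4 and Six6 were followed in single mouse cones and rods. They were taken by name, without use of their values, and all 8 were among the 10390 genes of the expression table. Photoreceptors arise from retinal progenitors that switch on Otx2, which in turn activates Crx, and Crx drives the genes of phototransduction in cones and rods. Prdm1 (Blimp1) holds young photoreceptors away from the bipolar fate, Onecut1 acts in progenitors that give rise to horizontal cells and cones, and the LIM factors and Six6 pattern the eye and its neurons. Cones in the mouse express a medium-wave opsin, a short-wave opsin or both along the superior to inferior axis, and the thyroid hormone receptor beta, encoded by Thrb, is required for the medium-wave opsin.

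The receptor-knockout cones were Trb2Cre-KO:Ai6 and came from mice of 2 months (2m), with 50 cells from the superior and 48 from the inferior retina. Rods of the same age were tgNrl:gfp, with 29 cells and no zone in the labels. Control cones were Trb2Cre-het:Ai6, so they too carried the Cre allele of the Thrb locus on 1 of its copies, and were taken at 5 ages. There were 26 superior and 30 inferior cells at postnatal day 2 (P2), 24 and 24 at P8, 24 and 24 at P21, 26 and 21 at P60, and 53 and 50 at 2m. All mice were C57BL/6. Cones were recognised by the fluorescence of the Ai6 reporter that the Cre driver switches on, were picked singly under a microscope after papain, and 1 cell gave 1 library. The receptor was pulled down with its DNA (ChAP-seq) from whole retina at embryonic day 18 (E18), from 2 ThrbHAB:BirA samples and 2 BirA samples. Open chromatin (ATAC-seq) was read in cone nuclei purified at P30 from 2 Trb2Cre-KO:Sun1-gfp and 2 Trb2Cre-het:Sun1-gfp samples. The labels name no animal, so the cells of 1 age, zone and genotype were taken as 1 sample, and differences between ages, genotypes and cell types are given as sizes without a test.

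Levels are in CPM, the gene's reads scaled to the depth of its library. The median depth was 1.09e+07 to 1.83e+07 reads per cell in the groups of the 2m collections and 1.74e+06 to 3.25e+06 in those of the others. Thrb averaged 43.2 CPM in superior knockout cones, against 213 CPM at 2m and 358 CPM at P60 in superior controls, and 33.9 CPM in inferior knockout cells, against 170 and 192 CPM in inferior controls. Rods and cones were checked by opsin and transducin: no rod had over 2.47 CPM of the cone transducin Gnat2, and none had under 24883 CPM of rhodopsin. Of the libraries labelled as cones, 2 stood apart with hardly any cone RNA. Superior P2 control cell 4 had 1.56 CPM of Gnat2 and superior knockout cell 35 had 9.69 CPM, where the next lowest cone had 53.2 CPM. These cells held Lhx2 at 133 and 553 CPM and under 2 CPM of both Otx2 and Crx. In 3 inferior control libraries, 1 at P21 and 2 at P60, rhodopsin exceeded 10000 CPM.

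In single cells the genes were mostly either clearly present or close to absent. Over all cells and the 8 genes, 1300 values were over 10 CPM and 121 lay between 1 and 10 CPM. The median control cone at P2 held 5 of the 8 transcripts over 1 CPM in the superior retina and 6 in the inferior retina. The median was 4 in both zones at P8, and 3 in both zones at P21, P60 and 2m. It was 4 in superior and 3 in inferior knockout cones, and 1 in rods. At least 5 of the 8 were present together in 13.2% of superior and 0% of inferior 2m controls, against 80.8% and 76.7% of P2 cones. The 2m libraries were the deeper ones. When every cell was thinned to 800000 reads, each of the 104 shares of cells stayed within the exact 95% interval of its value at full depth.

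**Figure D1:**
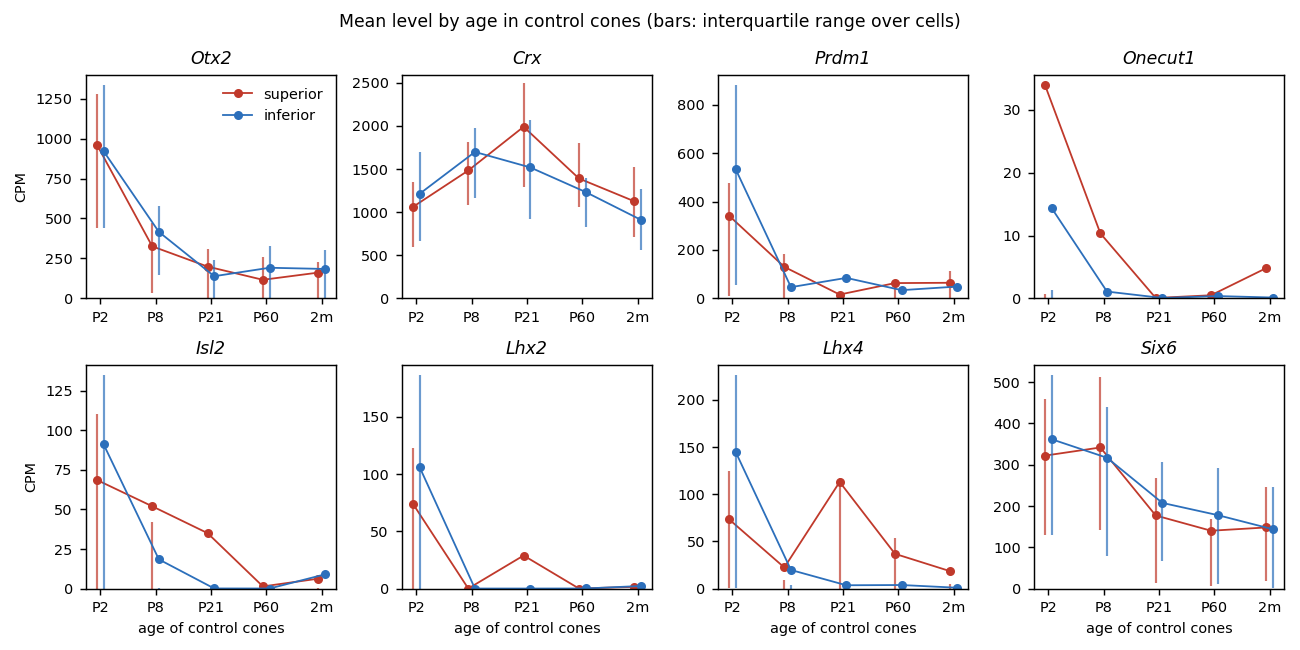
Mean level of each of the 8 genes (CPM, vertical axis, a scale of its own in each panel) in superior (red) and inferior (blue) control cones at P2, P8, P21, P60 and 2m (horizontal axis). Points are means over the cells of a group, and bars span the interquartile range of the cells. Otx2, Prdm1, Isl2 and Lhx2 were highest at P2 in both zones, Crx was highest at P21 in superior cones and at P8 in inferior cones, and Lhx4 was high again in superior cones at P21.

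The first question was how the regulators change as cones mature after birth. By P8, 4 of the 8 had levels 2-fold or more lower than at P2 in each zone, namely Otx2, Prdm1, Lhx2 and Lhx4, where 4.86% of all genes met that rule. None of the 8 was higher at P8, where 3.14% of all genes were. The rule also required, of the group with the higher level, a mean no lower than 10 CPM and transcript over 1 CPM in 25% of its cells or more. Both adult collections were lower than P2 by at least 4-fold in both zones for Otx2, Prdm1, Isl2 and Lhx2, again 4 of the 8, where 1.52% of all genes met that rule, and 0 of the 8 were higher, where 1.27% of all genes were. The same 4 were lower at P60 alone (2.67% of all genes lower, 1.89% higher) and at 2m alone (3.56% lower, 2.45% higher). None of the 8 met the 2-fold rule in either direction at P21 over P8 (3.89% of all genes lower, 1.58% higher), at P60 over P21 (1.02% lower, 0.962% higher) or at 2m over P60 (2.53% lower, 2.56% higher). The median log2 ratio of P8 over P2 was −1.47 in superior and −2.53 in inferior cones over the 8 genes, beside −0.15 and −0.20 over all genes. With median-ratio size factors on summed reads in place of CPM, the median shift over all genes was 0.10 and 0.17 log2 units for this pair. Of all genes, 3.90% then met the lower rule. Otx2 then narrowly missed 2-fold in inferior cones, at −0.84. For the adult collections over P2 the shift was 0.24 to 0.41, and Otx2 missed 4-fold in inferior cones, at −1.99 for P60 and −1.82 for 2m, which left 3 of the 8, where 0.991% of all genes were lower in both adult collections with size factors.

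Otx2 averaged 962 and 922 CPM in superior and inferior cones at P2, 326 and 416 at P8, 199 and 139 at P21, 116 and 192 at P60, and 161 and 184 at 2m. At 2m, superior cells ran from 0 through a median of 146 to 822 CPM, and 30 of 53 exceeded 10 CPM. At P2, where nearly every cell held the transcript, superior cells ran from 0.39 through a median of 1016 to 2047 CPM, and 24 of 26 exceeded 10 CPM. The lower adult mean therefore came with fewer cells that held the transcript and with less of it in those cells, whose median was 210 CPM in superior 2m cells over 10 CPM, against 1036 CPM in those at P2. The log2 ratio of 2m over P2 was −2.57 in superior and −2.32 in inferior cones, and that of P60 over P2 was −3.04 and −2.26.

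Crx, the activator of photoreceptor genes that acts downstream of Otx2, did not follow this course. It averaged 1061 and 1212 CPM in superior and inferior cones at P2, 1483 and 1698 at P8, 1990 and 1519 at P21, 1390 and 1233 at P60, and 1126 and 911 at 2m. Every one of the cells at P8, P21 and P60 had over 10 CPM, with a lowest cell of 32 CPM in inferior P60 cones. The 2m control means lay at log2 ratios of 0.09 and −0.41 over P2. No pair of ages differed by 2-fold.

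Prdm1, a zinc-finger repressor, was at its highest at P2, with superior cones at 342 CPM and inferior cones at 534 CPM. It averaged 130 and 46.2 CPM at P8, 15.7 and 84.5 at P21, 63.1 and 33.8 at P60, and 64.3 and 48.7 at 2m. The share of cells over 1 CPM was 80.8% and 83.3% at P2, 12 of 24 and 6 of 24 cells at P8, and 32.1% and 26% at 2m. Thus most adult control cones had close to none, while the cells that held it reached 378 CPM in superior cones of 2m and 496 CPM in inferior ones. At P21 the superior mean was the lower of the zones, and at P60 the higher.

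Onecut1 was sparse at every age. Its means were 33.9 and 14.4 CPM in superior and inferior P2 cones, 10.3 and 1.08 at P8, 0.0606 and 0.0581 at P21, 0.491 and 0.365 at P60, and 4.83 and 0.129 at 2m. At P2, 3 of 26 superior and 4 of 30 inferior cells exceeded 10 CPM, and a single cell of 451 CPM gave 51.1% of the superior sum. Because only 19.2% of superior P2 cells passed 1 CPM, the gene fell outside the size rule, although its plain ratio of P8 over P2 was 3.28-fold lower in superior and 13.3-fold lower in inferior cones. It joined the genes lower at P8 once the filter on low values was lifted, which made 5 of the 8, where 10.2% of all genes were lower without that filter.

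Isl2, a LIM-homeodomain factor known from motor neurons and retinal ganglion cells, averaged 68.7 and 91.3 CPM in superior and inferior cones at P2, 52 and 18.4 at P8, 35 and 0.0489 at P21, 1.34 and 0.0190 at P60, and 6.24 and 8.95 at 2m. It exceeded 10 CPM in 5 of 53 and 4 of 50 cells at 2m, against 8 of 26 and 12 of 30 at P2. The superior P21 mean rested on 3 of 24 cells, 1 of which, at 603 CPM, gave 71.7% of the sum. The adult levels were lower than at P2 in both zones whichever collection was used, at log2 ratios of −4.90 and −6.50 for P60 and −3.27 and −3.21 for 2m. From the mean of log2(CPM + 1) over cells the 2m ratios were −1.91 and −2.50. Isl2 then missed 4-fold in superior 2m cones.

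Lhx2, a LIM factor of retinal progenitors and Müller glia, was the most sharply dated of the 8. It averaged 74.0 CPM in superior and 106 CPM in inferior P2 cones, with 10 of 26 and 13 of 30 cells over 10 CPM. At P8 not 1 read was found in the 24 superior and 24 inferior cells, which allows a share of up to 12.5% of cells in each zone. With P8 set at 3 reads over the group, its mean was at least 1799-fold lower than at P2 in superior cones. In inferior cones it was at least 1833-fold lower. These limits cover read counting in the picked cells alone. They do not bound the level over all P8 cones, since up to 12.5% could hold the transcript. Without the superior P2 library that lacked cone RNA the P2 mean was 71.6 CPM. At P21, the superior mean of 28.8 CPM came from 2 of 24 cells, at 560.2 and 132 CPM, and no inferior cell held a read. Adult means were between 0.0198 and 2.24 CPM.

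Lhx4, known in the mouse from early cones and from bipolar cells, averaged 73.4 and 145 CPM in superior and inferior cones at P2 and 22.3 and 19.7 CPM at P8. From P21 the zones parted. Superior cones averaged 113 CPM at P21, 36.8 at P60 and 18.3 at 2m, against 3.48, 3.73 and 0.861 CPM in inferior cones. So the inferior level was lower than at P2 by 168-fold at 2m, while the superior level was lower by 4.01-fold. The inferior 2m mean rested on 1 cell at 37.3 CPM, and without it the mean was 0.118 CPM, lower than at P2 by 1223-fold.

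Six6, a homeobox gene of the eye field and optic cup, moved less. It averaged 322 and 362 CPM in superior and inferior cones at P2, 342 and 317 at P8, 177 and 207 at P21, 140 and 178 at P60, and 148 and 144 at 2m. Over 70% of the cells of every cone group exceeded 1 CPM, from 72.0% in inferior 2m controls to 96.2% in superior P2 cones. The adult means were 2.03-fold to 2.52-fold lower than at P2 in each zone, and so met 2-fold but not 4-fold. With size factors they fell short of 2-fold. The log2 ratios in superior and inferior cones were then −0.89 and −0.54 for P60 and −0.76 and −0.89 for 2m.

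For every gene the order of the 13 group means was set against the spread of cells. Between neighbours in that order the interquartile ranges of the cells overlapped in each case, apart from the rods at the bottom of the Six6 order, which did not overlap the group above. Neighbours were close by the sorting, so their overlap does not speak of groups further apart. For Otx2 the range was 439 to 1281 CPM in superior P2 cones and 0.341 to 227 CPM in superior 2m controls, without overlap. For Onecut1, Isl2 and Lhx2 the overlap says little of the means, because in most groups the upper quartile was under 1 CPM.

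Markers of cones and of other cell types also differed between P2 and later collections. The summed level of the 12 cone markers averaged 53210 and 90171 CPM in superior and inferior 2m cones, against 10839 and 12552 CPM at P2, and lay between them at P8, at 27564 and 45995 CPM. Of 10 Müller glia markers, 7 were measured. Their sum averaged 376 CPM (5.71 to 1048 over cells) in superior and 526 CPM (1.12 to 1745) in inferior P8 cones, against 1280 CPM (1.69 to 3781) and 1106 CPM (117 to 2249) at P2. At P8 Dkk3 was at 0 in every cell of both zones, Rlbp1 and Slc1a3 in those of the superior and Vim in those of the inferior zone. At 2m the sum was 1017 and 1128 CPM. Of 8 amacrine markers, 2 were measured (Slc6a9 and Pax6). Their sum averaged 51.8 CPM (0 to 241) in superior and 24 CPM (0 to 216) in inferior P8 cones, and 22.5 CPM (0 to 174) and 12.9 CPM (0 to 264) in 2m cones, against 158 CPM (0 to 981) and 170.4 CPM (0 to 894) at P2. Of 8 horizontal cell markers, 4 were measured (Tfap2b, Slc4a3, Ndrg1 and Tpm3). Their sum at P8 was close to that at P2, at 218 CPM (0 to 967) in superior and 217.5 CPM (0 to 951) in inferior P8 cones, against 226 CPM (0 to 853) and 237 CPM (0.319 to 590) at P2, and Tfap2b was at 0 in every P8 cell. At 2m it was 33.7 CPM (0 to 409) and 35.5 CPM (0 to 587). Of 8 ganglion cell markers, 3 were measured (Nefl, Nefm and Slc17a6). Their sum averaged 79.5 CPM (0 to 900) in superior and 99.4 CPM (0 to 1215) in inferior P2 cones. It was 46.2 and 41.3 CPM at P8 and 13.6 and 78.1 CPM at 2m. Of 8 progenitor and cycling markers, 1 was measured (Hmgb2), at 25.6 and 33.7 CPM at P2. It had 10.3 and 6.37 CPM at P8 and 40.1 and 47.8 CPM at 2m. The part of such RNA in the P2 levels of Onecut1, Isl2 and Lhx2 was not tested.

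Among 49 other photoreceptor and retinal regulators, 30 were measured. Between P2 and both adult collections, 4 of the 30 were lower by 4-fold in both zones and 1 was higher. Those lower were Six3, Pax6, Hes6 and Insm1, regulators of progenitors and of other retinal neurons, and the one higher was Nr1d1, a nuclear receptor of the circadian clock. Hes6 averaged 38.3 and 43 CPM in superior and inferior cones at 2m, against 624 and 472 CPM at P2. Nr1d1 averaged 266 and 222 CPM at 2m, against 16.7 and 53.3 CPM at P2. At P8, 7 of the 30 were lower than at P2 by 2-fold, with Thrb among them at 273 and 259 CPM against 897 and 861 CPM at P2, and 2 were higher.

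The second question was whether the regulators differ between superior and inferior cones. Here the 5 control collections gave 5 paired values, which limma tested on log2(mean CPM + 1) with the collection as a block. None of the 8 passed, where 0 of 10136 genes tested passed an adjusted p (Benjamini-Hochberg) of 0.05. The short-wave opsin gene Opn1sw was thus missed too, although inferior cones had the higher mean in all 5 collections. Inferior cones averaged 81034 CPM of it at P21 and 72134 CPM at P60, where superior cones had 6456 and 8870 CPM. The lack of a call therefore does not show that a gene is alike between the zones. At an unadjusted p below 0.05 there were 710 genes, and Lhx4 was the one among the 8. edgeR's quasi-likelihood test on recovered reads also called 0 genes, with 416 below an unadjusted 0.05, while DESeq2 called 236.

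**Figure D2:**
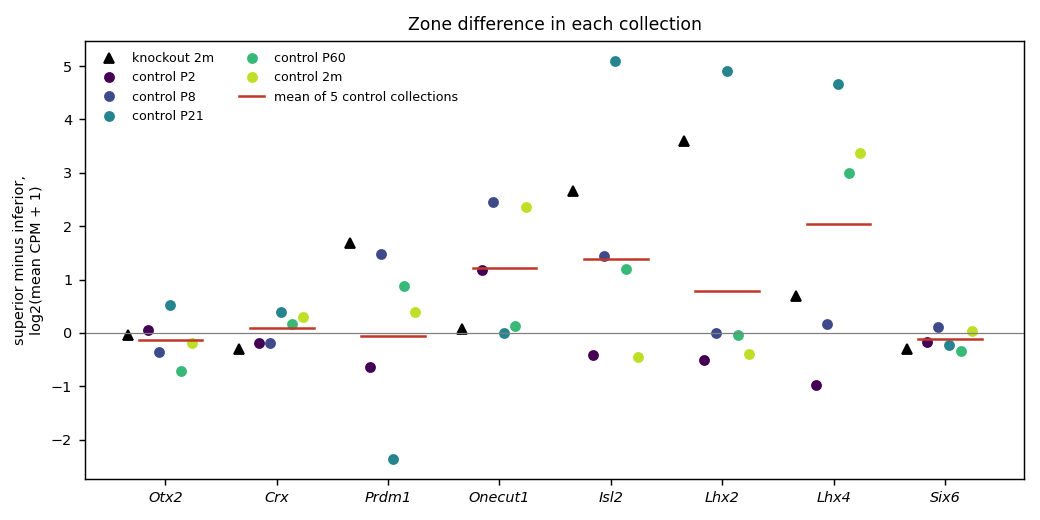
Difference between superior and inferior cones in log2(mean CPM + 1) for each gene, with the 2m knockout as a triangle, the 5 control collections as dots coloured by age and their mean as a red bar. The Lhx4 dots lay near 3 or above at P21, P60 and 2m and near or below 0 at P2 and P8, and the Otx2, Crx and Six6 dots stayed within 1 unit of 0.

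Lhx4 had a mean difference of 2.05 log2 units, superior minus inferior (SE 0.81, n = 5 collections; limma adjusted p = 0.702). The adjusted p was 0.0234 with DESeq2 and 0.496 or more under each of the other settings tried. The difference was −0.97 at P2, 0.17 at P8, 4.67 at P21, 3.0 at P60 and 3.38 at 2m, so superior cones were higher in 4 of 5 collections. In the exact two-sided sign-flip test over the 5 collections p was 0.188, where 0.0625 is the smallest that 5 values allow. The share of cells over 1 CPM told the same zones apart: 37.5% of superior and 12.5% of inferior cells at P21, 53.8% and 9.52% at P60, and 34% and 6% at 2m. The exact 95% intervals did not overlap at P60 (33.4% to 73.4% and 1.17% to 30.4%) or at 2m (21.5% to 48.3% and 1.25% to 16.5%), and cover the sampling of cells alone. At P2 the shares were 61.5% and 70.0%.

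Onecut1 was higher in superior cones in 5 of 5 collections, by 1.23 log2 units on average (SE 0.66; limma adjusted p = 0.760; exact sign-flip p = 0.0625). Only at P2 and P8 did either zone exceed a mean of 5 CPM. At P21 the difference was 0.0034, from 3 reads in superior and 4 reads in inferior cells. The share of cells over 1 CPM was in no collection higher in superior cones. At P2 it was 19.2% in superior and 30% in inferior cones, and at P8 8.33% and 16.7%. Isl2 had 1.38 (adjusted p = 0.769 with limma) and Lhx2 0.79 (limma adjusted p = 0.875), and both averages came chiefly from P21, at 5.10 and 4.90. Otx2 (−0.14), Crx (0.10), Prdm1 (−0.05) and Six6 (−0.12) had adjusted p of 0.886 to 0.988 with limma and no common direction over the 5 collections. Of the 30 other regulators none passed the adjusted threshold either, and 6 had an unadjusted p below 0.05.

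The third question was what loss of the receptor does to the regulators in adult cones. Against the 2m controls, Otx2 was higher by at least 2-fold in both zones and was the one among the 8 to meet the rule, where 1.05% of all genes were higher and 1% lower. Against the P60 controls it was 3.19-fold higher in superior and 1.97-fold higher in inferior cones, just short of the rule. Thus 0 of the 8 met it against the P60 controls, where 1.87% of all genes were higher and 1.9% lower, and 0 of the 8 met it against both control collections, where 0.173% of all genes were higher and 0.395% lower. Six6 was higher in both zones by less than 2-fold. For none of the 8 was a lower level found in both zones by 2-fold.

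**Figure D3:**
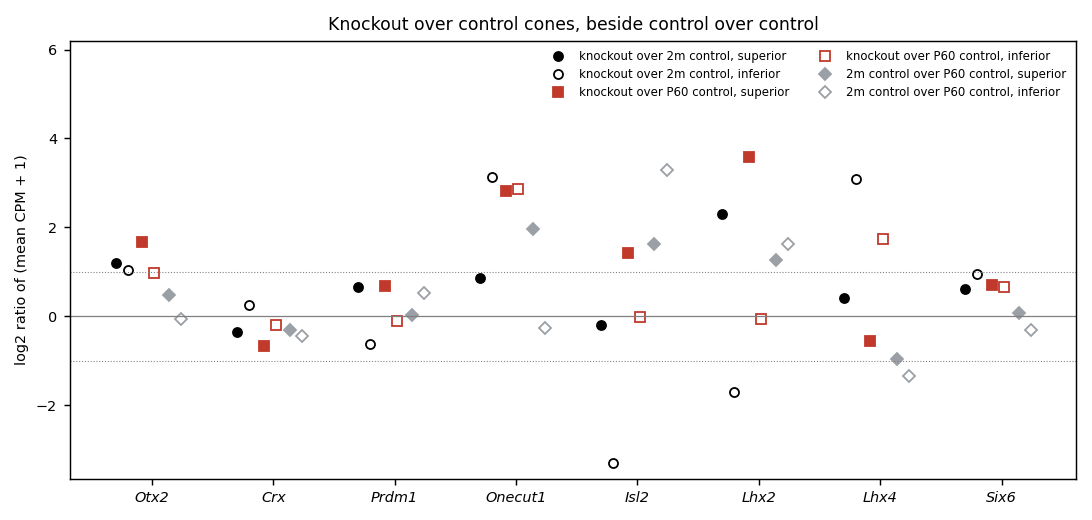
Log2 ratio of (mean CPM + 1) for each gene in knockout over 2m control cones (black), knockout over P60 control cones (red) and 2m over P60 control cones (grey), filled for superior and open for inferior cones. Dotted lines mark 2-fold. The Otx2 knockout ratios lay between 0.98 and 1.66, above the control ratios of 0.47 and −0.06, and the Six6 knockout ratios between 0.62 and 0.96.

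Otx2 averaged 370 CPM in superior knockout cones, against 161 CPM in superior 2m controls (log2 ratio 1.19), and 378 CPM in inferior knockout cones, against 184 CPM in inferior 2m controls (log2 ratio 1.03). Single superior knockout cells ran from 0 through a median of 240 to 1519 CPM, against 0 through 146 to 822 CPM in superior controls. Inferior knockout cells ran from 0.0592 through a median of 251 to 1780 CPM, against 0 through 1.97 to 1472 CPM in inferior controls. Cells of the groups overlapped over most of their range. Transcript over 10 CPM was found in 39 of 50 superior and 35 of 48 inferior knockout cells, against 30 of 53 and 24 of 50 control cells. Among the cells over 10 CPM the medians were 308 and 441 CPM in the knockout, against 210 and 309 CPM in the 2m controls. The 2m controls over the P60 controls, which differ in collection and not in genotype, had log2 ratios of 0.47 and −0.06.

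The call for Otx2 depended on the scaling and on how cells were combined. Size factors were applied to summed reads, in which deeper cells weigh more. The median shift over all genes was then −0.02 in superior and −0.13 in inferior cones. The Otx2 log2 ratios were 0.85 and 0.80 and the 2-fold rule was not met. With the mean of log2(CPM + 1) over cells they were 1.86 and 2.26, and without the highest cell of each group 1.22 and 1.14. Without the superior knockout library that lacked cone RNA the superior value was 1.22. Bipolar cells too express Otx2. Of 11 bipolar markers, 3 were measured (Cabp5, Scgn and Lrtm1), and their sum averaged 384 CPM (0 to 2045) in superior knockout cells, against 106 CPM (0 to 800) in superior 2m control cells. In inferior cells it averaged 364 CPM (0 to 1502) in the knockout, against 293 CPM (0 to 2138) in the 2m controls. The P60 controls had 237 CPM (0 to 888) in superior and 381 CPM (0 to 1096) in inferior cells. Of the 3 markers, 1 had a mean over 10 CPM in superior knockout cells, so the sum there rests on 1 gene. The part of bipolar RNA in the Otx2 difference was not tested.

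Six6 averaged 227 CPM in superior knockout cells, against 148 CPM at 2m and 140 CPM at P60 in superior controls, and 280 CPM in inferior knockout cells, against 144 and 178 CPM in inferior controls. All 4 log2 ratios were positive, at 0.62 and 0.96 over 2m and 0.70 and 0.65 over P60. At a threshold of 1.5-fold both Otx2 and Six6 were higher against both collections, 2 of the 8, where 0.741% of all genes were.

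Crx averaged 878 CPM in superior knockout cells, against 1126 CPM in the superior 2m controls, and 1081 CPM in inferior knockout cells, against 911 CPM in the inferior ones, so the zones had opposite signs at −0.36 and 0.25. Prdm1 had means of 102 CPM (superior) and 31.1 CPM (inferior) in the knockout, against 64.3 and 48.7 CPM in the 2m control groups. The superior minus inferior difference of Prdm1 was 1.68 log2 units in knockout cones, beside 0.39 in 2m controls, and was positive in 3 of the 5 control collections.

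The remaining genes were carried by few adult cells. Onecut1 averaged 9.50 CPM in superior knockout cells, against 4.83 CPM at 2m and 0.491 CPM at P60 in superior controls, and 8.94 CPM in inferior knockout cells, against 0.129 and 0.365 CPM in inferior controls. These means came from 3 of 50 superior and 2 of 48 inferior knockout cells over 10 CPM, against 2 of 53 and 0 of 50 control cells of 2m. Its log2 ratios were above 1 in each zone against P60 but not against superior 2m cones. Isl2 averaged 5.28 CPM in superior knockout cells and 0 in inferior ones, where the 2m control groups had 6.24 and 8.95 CPM, and the 0 of 48 cells allow a share of up to 6.25%. Lhx2 averaged 11.2 CPM in superior knockout cones, against 1.47 CPM in 2m controls, but 99.1% of the sum came from the library without cone RNA, and the mean without it was 0.107 CPM. Lhx4 averaged 24.5 CPM in superior knockout cells, against 18.3 CPM in superior 2m controls, and 14.8 CPM in inferior knockout cells, against 0.861 CPM in inferior 2m controls. In the inferior zone 6 of 48 knockout cells, against 1 of 50 control cells, exceeded 10 CPM, and the superior minus inferior difference was 0.70 in knockout cones, beside 3.38 in 2m controls.

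Of the 30 other regulators, Thrb, lower, was the one to meet the rule against both control collections. Against the 2m controls Ahr was higher too, with 77.5 CPM in superior knockout cells, against 17.7 CPM in superior controls, and 47.1 CPM in inferior knockout cells, against 0.208 CPM in inferior controls. Against the P60 controls, Rxrg, the retinoid X receptor partner of the thyroid receptor in cones, was higher, at 248 CPM against 85.8 CPM in superior and 253 CPM against 108 CPM in inferior cells, and Mef2c was higher and Pias3 lower. Both sets of ratios share the same knockout cells. The control collections also differed from each other in Ahr and Rxrg. Ahr averaged 45.3 and 18.3 CPM in superior and inferior P60 controls, and met the 2-fold rule as lower in 2m over P60 controls. Its log2 ratios of knockout over P60 controls were 0.761 and 1.32. Rxrg had log2 ratios of 0.544 (superior) and 0.299 (inferior) for knockout over 2m controls. For 2m over P60 controls they were 0.974 and 0.925. The part of the collection in these differences was not tested.

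The fourth question was which of the regulators cones and rods share. Rods over 2m control cones had a median log2 ratio of −1.01 over superior and −0.81 over inferior cones across all genes, against which single ratios should be read. The median over the 8 was −2.70 and −0.73. Lower by at least 4-fold than in both cone groups were Prdm1 and Six6, 2 of the 8, where 8.56% of all genes were lower and 0.597% higher. With size factors, 6.78% of all genes were lower and the all-gene medians were −0.38 and −0.31.

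**Figure D4:**
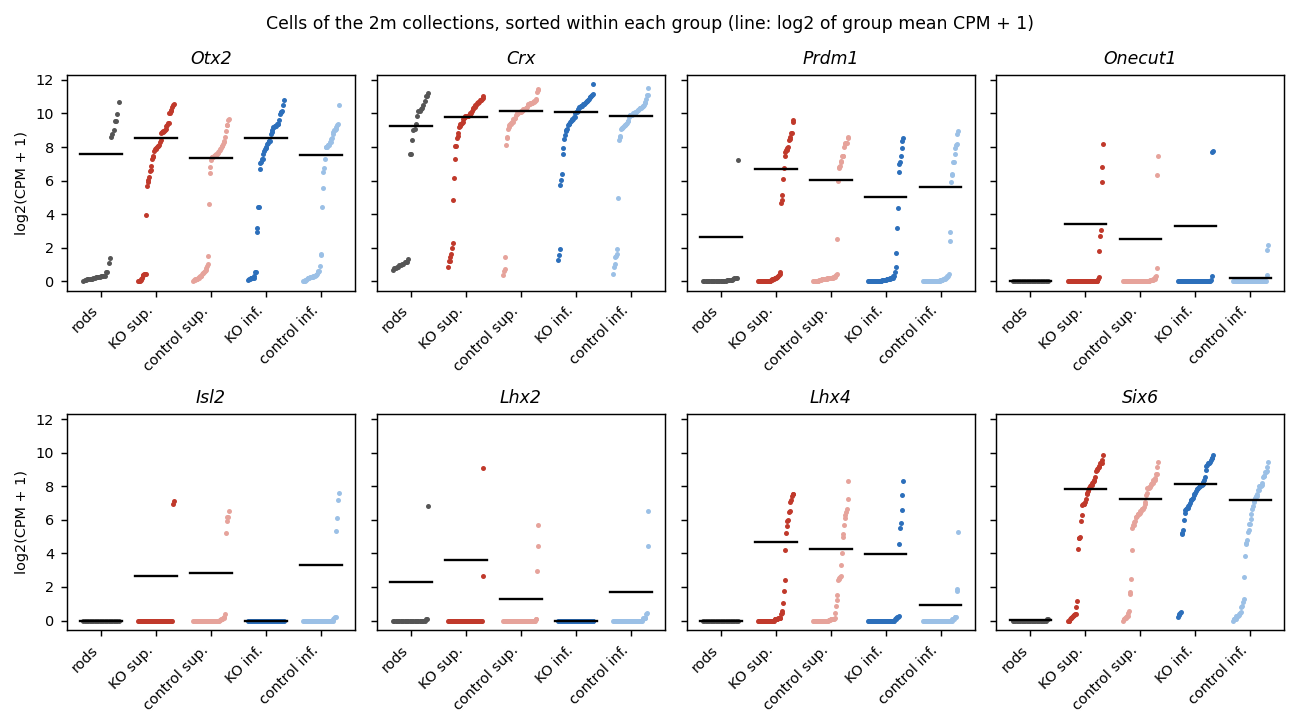
Single cells of the 2m collections, in the order rods, superior knockout, superior control, inferior knockout and inferior control cones, sorted within each group, as log2(CPM + 1) on the vertical axis, with a line at the log2 of the group mean + 1. In rods, Otx2 and Crx split into cells with much and cells with close to no transcript, and Six6 stayed at the floor. Lhx2 in superior knockout cones rested on 1 cell at 553 CPM.

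Six6 was all but absent from rods. A total of 2 reads was found in 29 rods, a mean of 0.00342 CPM, where 40 of 53 superior and 33 of 50 inferior control cones exceeded 10 CPM. No rod exceeded 1 CPM, which allows a share of up to 10.3%. Rods overlapped the cones that held no more than a trace of the transcript, and no others. The log2 ratios were −7.21 and −7.17 on the log2(mean CPM + 1) scale, and −7.25 and −7.28 with size factors.

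Prdm1 averaged 5.14 CPM in rods, against 64.3 and 48.7 CPM in superior and inferior 2m cones, and 99.5% of the rod sum came from 1 cell at 148 CPM. The log2 ratios were −3.41 and −3.02. With size factors on summed reads they were −1.97 and −1.72, short of 4-fold.

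Fewer rods than cones held Otx2 or Crx over 10 CPM. Crx passed 1 CPM in 75.9% of rods, against 94.3% and 96% of superior and inferior cones. Of the other regulators, Neurod1 passed it in 72.4% of rods, against 98.1% and 96% of cones. Rorb was among those that went the other way, at 72.4% against 30.2% and 34%. Whether transcripts were missed in rods was not tested. Otx2 averaged 190 CPM in rods, against 161 and 184 CPM in superior and inferior cones, with 7 of 29 rods over 10 CPM, against 30 of 53 and 24 of 50 cones. In those 7 rods the median was 742 CPM, against 210 and 309 CPM in cones over 10 CPM. The direction of the Otx2 difference turned with the way cells were averaged: log2 ratios were 0.24 and 0.05 from mean CPM, 1.04 and 0.96 with size factors and −2.11 and −1.59 from the mean of log values. Crx averaged 615 CPM in rods, against 1126 and 911 CPM in cones, and 16 of 29 rods exceeded 10 CPM, against 49 of 53 and 43 of 50 cones. Its ratios of −0.87 and −0.56 lay near the all-gene medians and were −0.16 and −0.01 with size factors. From the mean of log values they were −3.57 and −2.78. Crx then met the 4-fold rule, where 13.8% of all genes were lower.

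Onecut1, Isl2 and Lhx4 had no read in the 29 rods. With rods set at 3 reads over the group, the Lhx4 mean was at least 3241-fold lower in rods than in superior cones. Against inferior cones it was at least 152-fold lower, and at least 20.9-fold without the highest inferior cone. These limits cover read counting alone. The 0 of 29 rods allow a share of up to 10.3%, where 34% of superior and 6% of inferior control cones exceeded 1 CPM. By cells, rods and inferior cones were thus not told apart. Lhx2 exceeded 10 CPM in 1 rod, at 112 CPM. Of the 30 other regulators, Nr2e3, Rorb and Samd11 were higher in rods by 4-fold and Rxrg, Pou2f1, Prdm8, Nr1d1 and Atoh7 were lower. Nr2e3, the rod nuclear receptor, averaged 1667 CPM in rods, against 5.38 and 17.4 CPM in cones. The sum of the 7 Müller glia markers averaged 2889 CPM in rods (0.242 to 9784), against 1017 CPM (0.289 to 2972) and 1128 CPM (1.28 to 4435) in superior and inferior cones. The part of this RNA in the rod levels, Lhx2 included, was not tested.

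The fifth question was where receptor binding and receptor-dependent open chromatin lie relative to the genes. The 3 deposited lists, on GRCm38/mm10, held 4590 receptor regions at E18, 5049 open regions named induced and 4072 named suppressed at P30, and were set against RefSeq gene intervals of GRCm38.p6. A receptor region lay within 50 kb of 7 of the 8 genes, where 39% of 10143 placed genes had one. An induced region lay within 50 kb of 5 of the 8, where 35.5% of genes had one, and a suppressed region near 4 of the 8, where 13.2% of genes had one.

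**Figure D5:**
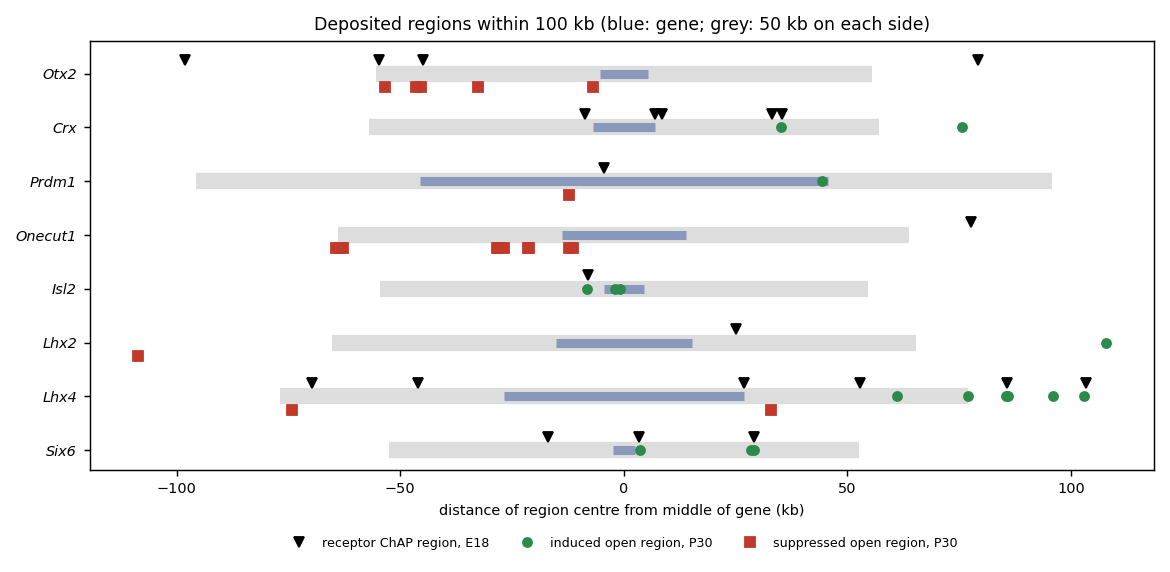
Deposited regions around each gene, as the distance of the region's centre from the middle of the gene (kb, horizontal axis). Blue bars are the genes and grey bars reach 50 kb beyond them; triangles are receptor regions at E18, green dots induced and red squares suppressed open regions at P30. Otx2 and Onecut1 had suppressed and no induced regions, and Crx, Isl2 and Six6 induced and no suppressed ones.

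Onecut1 (chr9:74861921-74889648) had 10 suppressed regions within 50 kb, a number reached by 0.108% of genes. They formed groups about 49 kb, 13 kb and 7.4 kb from the gene, with 2 more inside it at chr9:74862969-74863887 and chr9:74864252-74864501. It had no induced region within 100 kb, and its nearest receptor region was 63.7 kb away. Otx2 (chr14:48656781-48667644) had 5 suppressed regions within 50 kb, a number or more found near 0.71% of genes, and no induced region. The nearest, chr14:48654971-48655842, lay 939 bp from the gene. The suppressed region chr14:48616189-48617717, 39.1 kb from the gene, overlapped the receptor region chr14:48617092-48617391, which ranked 3986 of 4590 by the list's p-value column. At least 5 suppressed regions and no induced region were found near 0.483% of all genes.

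Crx (chr7:15865947-15879955) lay among 5 receptor regions within 50 kb, again a number or more found near 0.818% of genes. The region chr7:15908083-15908382, 28.1 kb from Crx, ranked 79 of 4590, and it overlapped the induced open region chr7:15907837-15908518. A second receptor region, chr7:15879866-15880165, overlapped the end of the gene and ranked 772. Other genes lie in this window too, among them Crxos at 2662 bp from Crx and Selenow at 37.3 kb.

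Isl2 (chr9:55538677-55547667) had 3 induced regions, 2 of them inside the gene, and the third, chr9:55534535-55535373, overlapped its 1 receptor region, chr9:55534991-55535290. Six6 (chr12:72939882-72944899) had 3 induced and 3 receptor regions, 2 of which overlapped. The receptor region nearest to it, chr12:72945674-72945973, began 775 bp from the gene inside the induced region chr12:72945380-72946541. Lhx4 (chr1:155698031-155751726) had 4 receptor, 2 induced and 2 suppressed regions within 50 kb, with the receptor region chr1:155751528-155751827 across 1 end of the gene. Prdm1 (chr10:44437174-44528558) held 1 region of each list within the gene, without overlap. Lhx2 (chr2:38339271-38369737) had 1 receptor region at 9.77 kb and no ATAC region within 50 kb. The lists carry no values per sample, so the error of these counts cannot be given.

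Set beside the RNA, Otx2, with suppressed regions alone, was the one gene to meet the 2-fold rule against the 2m controls. It did not meet it against the P60 controls or with size factors. Onecut1, with suppressed regions alone as well, had means of 9.50 and 8.94 CPM in few knockout cells. Six6, with induced regions alone, was higher in knockout cones by 1.54-fold and 1.95-fold over the 2m controls. Open regions were read at P30 and RNA at 2m. The lists do not state how a region was named induced or suppressed, so the direction of these names relative to the receptor is taken from the names alone.

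Genes with the most similar course were sought over the 12 cone groups by Pearson's r of log2(mean CPM + 1) among 10349 genes. The 12 points share libraries, depth and, among controls, ages. Closest to Otx2 were Fzd3 (r = 0.956), a Wnt receptor, St3gal5 (0.947) and Dapk1 (0.947). Closest to Lhx4 were Taok2 (0.960), Dtx4 (0.941) and Igf2bp2 (0.904). For Crx they were Tmem129 (0.928), Atp1b2 (0.902) and Klhl18 (0.896). For Prdm1 they were Mab21l2 (0.908), Gcat (0.906) and Nln (0.904), and Mab21l2 averaged 2.78 and 1.74 CPM in superior and inferior 2m cones, against 64.5 and 211 CPM at P2. For Six6 they were Rpl37a (0.925), Cited1 (0.921) and Dapk1 (0.921). For the sparse genes they were Slitrk6 (0.916), Frmd4a (0.910) and Ptbp2 (0.883) with Onecut1, Slc5a3 (0.929), Matr3 (0.928) and Ski (0.927) with Isl2, and Nckap5 (0.925), Nabp1 (0.920) and Gm39214 (0.915) with Lhx2. Within the set, Otx2 ran most closely with Six6 (r = 0.856) and Onecut1 (0.808), and Crx had an r between −0.441 and 0.296 with each of the others.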

How the data were processed

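Single-cell RNA values were analysed in 400 cones and 29 rods, with 3 region lists. Per the labels' protocols, each cell gave a SMART-Seq v4 cDNA and a ThruPLEX library. The submitters' processing notes name bcl2fastq 2, STAR 2.7.3a and MACS2 2.2.7.1 on GRCm38/mm10, while no source used here states the counting tool, its strand setting, the gene filter or the rule for induced and suppressed regions. The RNA table was deposited by the authors in CPM. The sum of a library was 80.0% to 93.0% of the full CPM scale, so some genes were left out after scaling. All values above 0 (100%) were whole multiples of a library's step within 0.1 reads, and counts were recovered from the deposited steps (8.98e+05 to 3.26e+07 reads a cell). The p-value column of the receptor list, deposited by the authors without a statement of its kind, served to rank regions. Reads have no molecular identifiers, so intervals (exact binomial, 95%) and limits for 0 (3 counts) cover counting error only. They do not cover the spread between animals, since no animals are named.

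Superior P60 libraries 3 and 14 had r = 0.996 (next pair 0.467). They differed by less than other cells of the table and were counted as 1 cell. Group values are means over cells, and ratios are log2 of (mean CPM + 1). The size rule asked for 2-fold in both zones in 1 direction (4-fold for adult over P2 and for rods), and, of the group with the higher level, a mean no lower than 10 CPM and transcript over 1 CPM in 25% of its cells or more. A share of cells is of those over 1 CPM unless 10 CPM is named. Zone differences were tested by limma 3.58.1 with a block for the collection and a trended prior, on the 10136 genes that averaged 5 CPM or more, adjusted by Benjamini-Hochberg at 0.05, and by exact sign flips. The limma script was tested on simulated data. Alternatives were edgeR 4.0.16 and DESeq2 1.42.0 on summed recovered reads, other pseudocounts (0.1 and 10 CPM), scalings, filters, folds and distances, and leaving out collections, cells or libraries. Leaving out the libraries that stand apart (Gnat2 under 50 CPM or rhodopsin over 10000 CPM in a cone) and keeping the near-identical pair were chosen after the data were seen. Distances run from the RefSeq gene interval to the region, with 10143 of 10390 genes placed. Deposited starts count from 0 and are given from 1. The 8 genes were taken by name, and other regulators were named where they met a comparison's rule. The genes and lists were chosen with earlier results of these data known. Some genes of these lists are not reported here and were left out of the sums and counts. Software was Python 3.11.15, numpy 2.4.6, pandas 2.3.3 and R 4.3.3.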

Additional observations from a re-analysis of the deposited data

Results flagged for a closer look

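The superior minus inferior difference of Lhx2 at P21, 4.90 log2 units, lay far from those of the other 4 collections, which ran from −0.51 to 0. It rested on 2 of 24 superior cells. The criterion was Dixon's 95% critical value, which by its definition sets apart about 1 in 20 such groups by chance.

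For 3 genes the signs were opposite in the zones when knockout cones were set against 2m controls, and the differences between zones were not tested. For Crx the log2 ratios were −0.36 in superior and 0.25 in inferior cones. For Prdm1 they were 0.65 in superior and −0.63 in inferior cones, and 0.72 and −0.13 with size factors. For Lhx2 they were 2.30 in superior and −1.70 in inferior cones, and the superior value was −1.16 without the library that lacked cone RNA.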

How the results depend on the processing

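Of 73 counts recomputed under an alternative, 59 stayed within 1.5 times the value reported and 14 did not. The number of the 8 genes higher in knockout cones against both control collections, 0 as reported, was 1 (Otx2) with the mean of log values over cells, 1 without the highest cell of each group and 2 at 1.5-fold. Against the 2m controls alone it was 1 as reported, 0 with a pseudocount of 10 CPM, 0 with size factors and 2 at 1.5-fold. The number lower at P8 than at P2 was 4 as reported and 1 (Lhx2) at 4-fold. The number lower in rods was 2 as reported, 1 with a pseudocount of 10 CPM or size factors, and 1 without the highest cell of each group, where Prdm1 in inferior cones dropped below 25% of cells. With the mean of log values it was also 2, but with Crx in the place of Prdm1. The genes called by zone, 0 with limma, were 16 with the mean of log values, 2 with no collection block and 236 with DESeq2. The number with an induced region was 5 within 50 kb and 3 within 10 kb. Lhx4 by zone had an adjusted p of 0.0234 with DESeq2.

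Signs of small zone differences turned: Otx2 (−0.14) was 0.0093 without P60, Crx (0.10) was −0.00053 with size factors, Lhx2 (0.79) was −0.235 without P21, and Prdm1 (−0.05) was 0.405 with the mean of log values, 0.0965 without P2 and 0.526 without P21. Over the 5 collections left out in turn, Otx2 ran from −0.30 to 0.0093, Prdm1 from −0.43 to 0.526 and Lhx2 from −0.235 to 1.12. The cause was not tested. Leaving out 1 collection at a time gave 0 genes called in each case (lowest 0, highest 0). Leaving out the highest cell for each gene in every group at once gave 4 lower genes for both maturation counts. Size factors shifted the median gene by −0.13 to 0.56 log2 units, most in rods over superior cones. The share of higher among the genes meeting the rule was 50.2% with size factors and 39.2% with CPM for P8 over P2, 57.7% and 40.8% for 2m over P2, 53.8% and 41.4% for P60 over P2, and 47.9% and 28.9% for P21 over P8. No paired analysis was possible because cell numbers in the titles only count cells and do not tie cells of 2 groups together, except by zone, where the zones were paired by collection as reported. Each group is 1 sample without a named animal, so the differences by age, genotype and cell type have no replicate error, and genes held by few cells (Onecut1, Isl2 and Lhx2 in adults) rest on those cells.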
